A study of Rattus norvegicus with 8 samples.

Results

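Lysosome and autophagy genes were examined in the kidneys of colistin-treated and saline-treated rats. The set held 37 genes taken from a fixed list of symbols, and a probe belonged to it when its RefSeq accession matched one of those genes. It comprised 22 genes for lysosomal enzymes, other lumen proteins and membrane proteins, the transcription factor gene Tfeb, and 14 genes of the autophagy machinery. Probes were found for 36 of the 37 genes, all 36 passed the filter on dim probes, and they stood among 12411 genes tested. Atg4b, a protease that processes ATG8 proteins, received no named probe and was not analysed here.

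The colistin group held 4 kidney samples from male rats labelled as 10 weeks of age, given 30 mg/kg colistin, at day 28. The control group held 4 kidney samples from male rats of the same labelled age, given saline, also at day 28. RNA was amplified to cDNA and hybridised to 1 single-colour Agilent array per sample, and each of the 3 array slides held both groups. Colistin, a last-line antibiotic of the polymyxin class, accumulates in and can injure cells of the renal tubule. How often colistin was given and the strain are not given in the sources used here. Whether each sample is its own animal is not stated in the labels, and the p-values speak only of how far these samples vary, and some of that variation may be technical.

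Lysosomes are acid compartments in which proteases, glycosidases and lipases break down material delivered by endocytosis and by autophagy. In autophagy, a membrane studded with ATG8 proteins closes around cell contents and then fuses with the lysosome. Cells of the proximal tubule take up filtered proteins and polymyxins by endocytosis and are rich in lysosomes. The transcription factors TFEB, TFE3 and MITF switch on many lysosome and autophagy genes in mouse and human cells.

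Levels are log2 spot intensities relative to each array's 75th percentile, so that a level of 0 is that percentile. A fold change is colistin minus saline on this scale, and levels are compared within a probe, not between genes. The saline arrays were dimmer before scaling, with a 75th percentile of 156 to 197 intensity units, against 271 to 317 on the colistin arrays. They also varied more: the SD was larger on saline than on colistin arrays for 28 of the 36 members and for 67.2% of all genes tested. Proximal tubule markers were well above background on all 8 arrays (8 of 8 genes), which fits the kidney label. Their summed level ran from 7.57 to 8.37 on colistin arrays and from 9.06 to 9.75 on saline arrays, without overlap. Of the 8 genes 2 fell (Aqp1 and Slc22a6), against 0.540% of all genes tested. For 6 of the 8 every colistin array lay below every saline array, against 11.7% of all genes. Slc5a2 (1.14 ± 0.47) and Cubn (1.25 ± 0.84) had positive log2 fold changes that did not pass. All 10 lists of cell type markers examined had every colistin sum below every saline sum, with list medians from -3.52 (thick ascending limb) to -0.96 (lymphocytes). Medians were -2.73 for endothelium and -2.58 for fibroblasts. In a whole-kidney sample, fewer cells of a type and less RNA per cell cannot be told apart, and neither was tested. The groups also differed in array brightness before scaling, and the part of brightness or scaling in these sums was not tested.

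Most lysosome and autophagy transcripts showed no change that passed the test. Of the 36 members, 1 rose (2.78%) and 0 fell (limma, Benjamini-Hochberg adjusted p under 0.05 over all genes), against 2.00% of all genes tested that passed in either direction and 1.46% that passed higher. That gene was Gpnmb, which encodes a transmembrane glycoprotein of lysosomes and melanosomes. At an unadjusted p under 0.05 there were 6 members (16.7%), 4 higher and 2 lower, against 22.7% of all genes. The groups did not overlap for 4 members (11.1%), namely Gpnmb, Ctsl and Sqstm1 on the higher side and Gabarapl2 on the lower, against 18.6% of all genes (6.89% higher, 11.7% lower). Set against these shares, the counts single out no behaviour of the set.

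The lysosomal and the autophagy members were also summarised apart. The 22 lysosomal members had a median log2 fold change of 0.37, with 18 positive and 4 negative values. The 13 autophagy members tested had a median of 0.059, with 7 positive and 6 negative. Over all genes tested the median was -0.14, and 45.1% of fold changes were positive. Scarb2 and Atg12, both counted as positive, met the filter on dim probes only through the colistin group. With normexp background correction they were -0.12 and -0.32. With only probes well above background on all 8 arrays, the medians were 0.31 (18 lysosomal members), -0.027 (12 autophagy members) and -0.24 (all genes). Within slides 1, 2 and 3 the lysosomal median was 0.36, 0.38 and 0.33, while the autophagy median was -0.53, 0.11 and 0.44. The median of all genes within the same slides was -0.37, -0.071 and -0.068. Slide 1 held colistin array 2 and saline arrays 1 and 4, and slide 2 held colistin array 3 and saline array 2. Slide 3 held colistin arrays 1 and 4 and saline array 3, so within-slide values rest on few arrays. The difference between the 2 groups of genes was described and not tested. It did not carry over to the wider lists. Medians there were 0.059 for other lysosomal hydrolases, -0.32 for other lysosomal membrane and accessory proteins and 0.35 for other autophagy machinery.

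**Figure D1:**
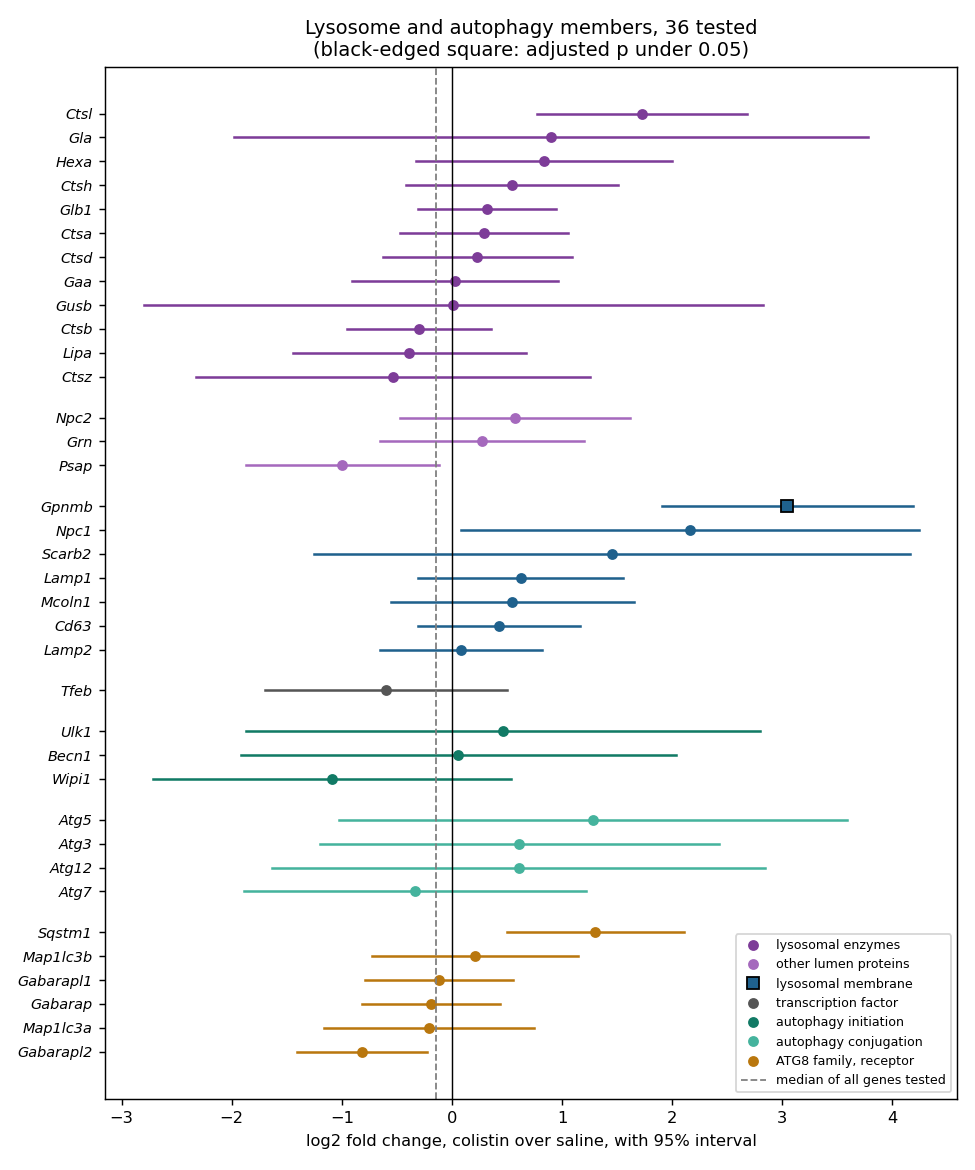
Log2 fold change (colistin over saline, horizontal axis) of each of the 36 members tested, grouped by role, with its 95% interval as a line and the median of all genes (-0.14) as a dashed line. Gpnmb, the black-edged square at 3.05, is the single member past the threshold, and 6 intervals lie wholly between -1 and 1.

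Gpnmb had levels of -2.39, -0.60, -1.17 and -1.28 on colistin arrays 1 to 4, against -4.42, -3.49, -5.13 and -4.59 on saline arrays 1 to 4. Every colistin array lay above every saline array, with a gap of 1.11 between the groups. The mean was -1.36 ± 0.75 on colistin arrays and -4.41 ± 0.68 on saline arrays (SD, n = 4 each). Gpnmb rose by 3.05 ± 0.50 (log2 fold change ± SE; 95% interval 1.91 to 4.19; limma adjusted p = 0.0246), which is 8.27-fold. It was the 347th largest rise among the 12411 genes.

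The Gpnmb signal was dim, and the probe was well above background on 4 of 4 colistin and 3 of 4 saline arrays. With normexp background correction, which pulls dim signals together, the log2 fold change was 0.82 (adjusted p = 0.0444). Its size therefore depends on the background correction, and 27.3% of all genes passed with normexp. The within-slide differences were 3.91, 2.32 and 3.29 on slides 1, 2 and 3. With slide as a block the adjusted p was 0.067. Leaving out colistin array 2, 3 or 4 gave adjusted p-values of 0.0661, 0.0753 and 0.0788, and leaving out saline array 1 or 3 gave 0.0558 and 0.0533.

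Gpnmb is expressed by macrophages as well as by injured tubule cells, so macrophage and monocyte markers were set beside it. Of 17 marker genes 13 were tested, 0 passed in either direction, and 12 of the 13 had negative fold changes with a list median of -1.15 and 6 of them at an unadjusted p under 0.05. Their summed level was 4.28 to 4.78 on colistin arrays and 5.44 to 6.14 on saline arrays. The other marker, Cd14, was well above background on 4 of 4 colistin and 0 of 4 saline arrays. Every colistin array was above every saline array for Cd14, with mean levels of -3.36 and -5.58 on colistin and saline arrays (unadjusted p = 0.0049; limma adjusted p = 0.0977), and the saline mean is only a bound. Itgam, Mrc1, Cd163 and Mertk were below the filter on dim probes. The summed macrophage signal was lower on colistin arrays, as for all 10 marker lists, so this is not particular to macrophages. The part of any cell type in the Gpnmb result was not tested.

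The rat Gpnmb promoter is shown because it holds an M-box, a motif bound by factors of the MITF and TFE family. The M-box searched was TCATGTG on either strand, within 250 bases before and 50 bases after the gene start (RefSeq, build GRCr8). It was present in 3.56% of 33469 promoters and in 4 of 32 member promoters with a sequence, those of Gpnmb, Grn, Scarb2 and Cd63. The 120 bases before the Gpnmb start, at chr4:79341008-79341127 on the plus strand, carry it in capitals on the reverse strand, 22 bases before the start:
Gpnmb: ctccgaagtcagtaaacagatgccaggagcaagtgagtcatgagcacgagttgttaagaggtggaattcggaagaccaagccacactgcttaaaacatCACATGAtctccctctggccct

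The match describes these letters and does not show binding. The other M-box members had fold changes of 0.27 for Grn, 1.45 for Scarb2 and 0.43 for Cd63, none past the threshold.

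**Figure D2:**
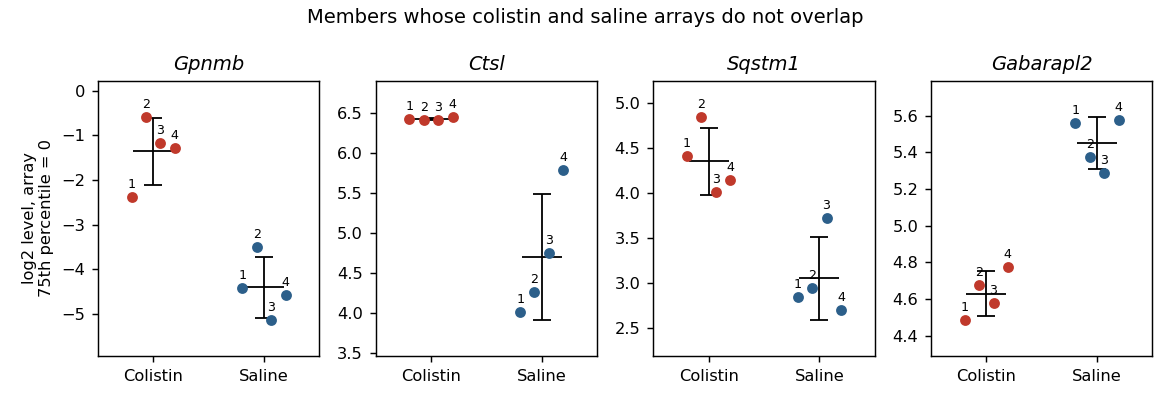
Log2 level (vertical axis, array 75th percentile at 0) of the 4 members whose groups did not overlap, one point per array numbered by replicate, with the mean and SD of 4 arrays as a black bar. Gpnmb, Ctsl and Sqstm1 are higher on every colistin array and Gabarapl2 is lower on every colistin array.

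Among the lysosomal proteases, cathepsin L stood apart. Ctsl, a cysteine endopeptidase gene, had levels of 6.43, 6.41, 6.42 and 6.45 on colistin arrays 1 to 4, against 4.02, 4.27, 4.75 and 5.79 on saline arrays 1 to 4. The colistin values were nearly identical, with an SD of 0.016, while the saline values spread over 1.77. The log2 fold change was 1.72 ± 0.41 (adjusted p = 0.0832), which missed the threshold. No spot on any array was saturated. Without saline array 4, the highest of its group, Ctsl passed with 2.08 (adjusted p = 0.0252). It also passed with normexp, where 27.3% of all genes did (1.85, adjusted p = 0.0288), and with quantile normalization (1.84, adjusted p = 0.0375).

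The other cathepsins showed smaller differences, and none passed. Ctsb, the cysteine protease cathepsin B, gave -0.30 ± 0.28, with colistin arrays at 6.38 to 6.73 and saline arrays at 6.43 to 7.13. Ctsd, the aspartic protease cathepsin D, gave 0.23 ± 0.37, and Ctsh, an aminopeptidase, gave 0.54 ± 0.42. Ctsa, the carboxypeptidase that protects other lysosomal enzymes, gave 0.29 ± 0.33. Ctsz, a carboxypeptidase gene, gave -0.53 ± 0.78 and was well above background on 3 of 4 arrays in each group. The 95% interval of Ctsb, -0.95 to 0.36, lay within a 2-fold change either way.

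The glycosidases and the acid lipase likewise held no call. Hexa, the alpha subunit of beta-hexosaminidase, gave 0.83 ± 0.51 (adjusted p = 0.343). Gla, which encodes alpha-galactosidase A, gave 0.90 ± 1.25. Its saline array 4 lay at -7.13, against -1.98 to -0.74 on the other saline arrays and -2.30 to -1.55 on colistin arrays, and without that array the estimate was -0.50. Gaa, the acid alpha-glucosidase, gave 0.027 ± 0.41, Gusb, the beta-glucuronidase, 0.013 ± 1.22, and Lipa, which hydrolyses cholesteryl esters and triglycerides, -0.39 ± 0.46. Gusb ranged from -3.97 to -0.25 on colistin arrays and from -3.86 to 0.44 on saline arrays, so that its interval of -2.80 to 2.82 bounds little. A second Gusb probe gave 0.64.

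Glb1, which encodes beta-galactosidase, was measured by 2 probes that differed in sign. The brighter probe had levels of 3.14, 3.37, 2.996 and 2.95 on colistin arrays 1 to 4, against 2.62, 2.84, 2.65 and 3.06 on saline arrays 1 to 4. Its log2 fold change was 0.32 ± 0.27 (adjusted p = 0.493). The second probe had -0.90, -1.70, -0.69 and -0.87 on colistin arrays, against 0.057, -0.29, -0.51 and -1.03 on saline arrays, a difference of -0.60. The groups overlapped on both probes.

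Of the 3 other lumen proteins, Psap had the most negative fold change of the 22 lysosomal members. Psap encodes prosaposin, the precursor of the saposins that help enzymes degrade sphingolipids. It had levels of 1.80, 0.37, 1.52 and 0.91 on colistin arrays 1 to 4, against 1.80, 2.21, 2.22 and 2.36 on saline arrays 1 to 4. Colistin array 1 just reached the saline range, and the other 3 lay below it. The log2 fold change was -0.996 ± 0.38 (adjusted p = 0.184), which did not pass. Grn, the progranulin precursor, gave 0.27 ± 0.41, with a second probe at 0.47, and Npc2, a soluble cholesterol carrier, gave 0.57 ± 0.46.

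The 7 lysosomal membrane members all had positive fold changes in the main setting, and Gpnmb alone passed. Scarb2 met the filter on dim probes only through the colistin group. Both Scarb2 and Lamp2 turned negative under some other setting, so the shared sign is not secure. Npc1, which exports cholesterol from the lysosome together with Npc2, had levels of -0.061, -0.50, 0.36 and -0.070 on colistin arrays 1 to 4, against 0.63, -3.62, -2.31 and -3.61 on saline arrays 1 to 4. Saline array 1 alone lay above all colistin arrays, and the other 3 lay well below them. The log2 fold change was 2.16 ± 0.90 (adjusted p = 0.208). Without saline array 1 it was 3.11 and passed (adjusted p = 0.0295). A second, dimmer Npc1 probe gave 3.32 and was well above background on 3 of 4 colistin arrays and 1 of 4 saline arrays. Its groups overlapped, with colistin array 1 at -7.19, and its saline array 1 was low, at -7.11.

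None of the remaining membrane members passed. Lamp1 and Lamp2, the major glycoproteins of the lysosomal membrane, gave 0.62 ± 0.41 and 0.084 ± 0.32. Cd63, a tetraspanin of late endosomes and lysosomes, gave 0.43 ± 0.32, and Mcoln1, the calcium release channel TRPML1, gave 0.55 ± 0.48. Scarb2, the carrier of glucocerebrosidase, gave 1.45 ± 1.18 and was well above background on 4 of 4 colistin and 2 of 4 saline arrays. With normexp Scarb2 was -0.12.

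In the autophagy machinery, Sqstm1 and Gabarapl2 lay on opposite sides. Sqstm1 encodes p62, a receptor that carries ubiquitinated cargo into autophagosomes and whose gene is also a target of the stress factor NRF2 in mouse and human cells. It had levels of 4.42, 4.84, 4.01 and 4.14 on colistin arrays 1 to 4, against 2.84, 2.94, 3.72 and 2.70 on saline arrays 1 to 4. Every colistin array was above every saline array, by a gap of 0.29. The log2 fold change was 1.30 ± 0.35 (adjusted p = 0.101), and a second probe on another Sqstm1 accession gave 0.96, with overlap between the groups. Within slides 1, 2 and 3 the difference was 2.08, 1.07 and 0.56. With normexp, where 27.3% of all genes passed, Sqstm1 passed (1.42, adjusted p = 0.0326).

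Gabarapl2, an ATG8 family member also known as GATE-16, had levels of 4.49, 4.68, 4.58 and 4.77 on colistin arrays 1 to 4, against 5.56, 5.37, 5.29 and 5.57 on saline arrays 1 to 4. All colistin arrays lay below all saline arrays, by a gap of 0.52, and both groups were tight. The log2 fold change was -0.82 ± 0.26 (95% interval -1.41 to -0.23; adjusted p = 0.136). With normexp, where 27.3% of all genes passed, it passed at -0.72 (adjusted p = 0.0257). The other Gabarapl2 probes gave -0.18 and -0.90, and both overlapped between the groups. Within slides 1, 2 and 3 the brightest probe gave -0.89, -0.79 and -0.66.

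For the other ATG8 genes the brightest probes gave estimates from -0.21 to 0.21, and none passed. Map1lc3a and Map1lc3b, which encode the LC3 proteins that coat autophagosomes, gave -0.21 ± 0.41 and 0.21 ± 0.41. A second, dimmer Map1lc3b probe gave 1.25. Gabarap gave -0.19 ± 0.27, with colistin arrays at 3.99 to 4.68 and saline arrays at 4.41 to 4.53. For Gabarapl1 the brighter probe had 4.35, 4.24, 4.16 and 3.99 on colistin arrays 1 to 4, against 4.58, 4.14, 4.59 and 3.89 on saline arrays 1 to 4. Its second probe had 3.21, 2.82, 2.44 and 2.17 on colistin arrays, against 3.43, 2.02, 2.61 and 1.86 on saline arrays. The 2 probes differed in sign, at -0.11 and 0.18, and the groups overlapped on both. The 95% intervals of Gabarap and Gabarapl1, -0.82 to 0.44 and -0.79 to 0.56, lay within a 2-fold change either way. Those of Map1lc3a and Map1lc3b, -1.16 to 0.74 and -0.72 to 1.15, each reached past 2-fold.

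The genes of autophagy initiation and of ATG8 conjugation were measured with wide errors, and none passed. Ulk1, the kinase that starts autophagy, gave 0.46 ± 1.02. Saline array 4 lay at 4.16, against -0.80 to 0.49 on the other saline arrays and 0.89 to 1.70 on colistin arrays, and without it the estimate was 1.56 (adjusted p = 0.112). Becn1, a subunit of the lipid kinase complex, gave 0.059 ± 0.86, and Wipi1, which binds the lipid that complex makes, gave -1.09 ± 0.71. Atg7 and Atg3, the enzymes that activate and transfer ATG8, gave -0.34 ± 0.68 and 0.61 ± 0.79. Atg5 and Atg12, which form the conjugate that directs ATG8 to the membrane, gave 1.28 ± 1.005 and 0.61 ± 0.97. Atg12 was well above background on 4 of 4 colistin and 1 of 4 saline arrays, and Atg5 ranged from -4.03 to 0.38 on colistin arrays alone, with a second probe at 0.53.

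Over all 36 members the SE of the fold change ran from 0.26 to 1.25. The 95% interval lay within a 2-fold change either way for 6 members, 4 lysosomal and 2 of autophagy. For the other 30, which include the called Gpnmb, it reached past 2-fold on at least one side. For those of them without a call, the missing call does not show that levels were alike.

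The transcription factors of the pathway were measured next. Tfeb had levels of -2.50, -1.71, -2.31 and -2.20 on colistin arrays 1 to 4, against -2.20, -1.73, -2.13 and -0.27 on saline arrays 1 to 4. The groups overlapped, and the log2 fold change was -0.60 ± 0.48 (adjusted p = 0.469). Its relative Tfe3, from the wider list of MiT/TFE and mTORC1 genes, had 3.15, 3.32, 2.04 and 1.78 on colistin arrays, against -0.21, -0.23, 0.15 and 0.56 on saline arrays. The groups did not overlap, and Tfe3 rose by 2.51 ± 0.44 (adjusted p = 0.0322), which is 5.68-fold. With slide as a block its adjusted p was 0.096, and it passed with 1 array left out only without saline array 4 (0.04, against 0.0507 to 0.0919 without each other array). The 2 other relatives had negative values that did not pass. Mitf gave -1.30 ± 0.36 (adjusted p = 0.106), with every colistin array below every saline array, and Tfec gave -0.99 ± 0.85 (adjusted p = 0.493).

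The motif bound by TFEB and TFE3 was then looked up in the member promoters. The consensus of the CLEAR element, which is TCACGTGA with a G before and a C after it, was in 0.233% of the 33469 promoters and in 0 of the 32 member promoters. Its core CACGTG, which lies inside the consensus and like it reads the same on both strands, was in 6.42% of all promoters. It was in 8 of the 32 member promoters (25%), those of Ctsd, Gaa, Glb1, Lamp1, Cd63, Mcoln1, Atg3 and Atg5. The longer TCACGTGA, which contains the core, was in 4 of the 32 (12.5%), against 0.777% of all promoters. The 8 genes with the core had fold changes of 0.027 to 1.28, all positive in the main setting, with a median of 0.49, and none passed the test. Of all 36 members tested, these 8 included, 25 were positive, so members without the core also had positive values. Whether the sign goes with the core was not tested. The second Glb1 probe gave -0.60, and Gaa changed sign in some alternatives. A match describes letters in this window and does not show binding. The stretches below are GRCr8 sequence upstream of the gene start, 5′ to 3′ on the gene's strand, with the core in capitals. Ctsd, Mcoln1 and Atg3 hold a second core outside the stretch shown. The Lamp1 promoter held 5 cores within its 200 bases before the start (chr16:83075064-83075263, minus strand). The shorter stretches lie at chr1:206968822-206968843 (Ctsd, minus), chr10:105028276-105028305 (Gaa, plus), chr8:122963606-122963635 (Glb1, plus), chr7:1921942-1921971 (Cd63, plus), chr12:6358224-6358253 (Mcoln1, plus), chr11:69159281-69159308 (Atg3, minus) and chr20:49380804-49380833 (Atg5, plus).
Lamp1: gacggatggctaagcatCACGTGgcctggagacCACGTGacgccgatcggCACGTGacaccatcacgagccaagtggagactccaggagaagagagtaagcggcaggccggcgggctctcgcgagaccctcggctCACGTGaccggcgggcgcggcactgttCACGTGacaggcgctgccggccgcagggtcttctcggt
Ctsd: tcgcccgcgtctCACGTGaccc
Gaa: ccgcccacaaacCACGTGacccacgctgcc
Glb1: cggctccggagtCACGTGgcctgcagaggc
Cd63: ccgggcagcggcCACGTGgcctgtccaggc
Mcoln1: cgtcaagcttgtCACGTGttcgacccaggc
Atg3: ggagattcgagtCACGTGaggcctagga
Atg5: cggggcgctggcCACGTGggcgggtgacgt

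Calls in the wider pathway were about as frequent as among all genes tested. Lists of 166 other lysosome and autophagy genes were taken, of which 143 were tested. Of these 2 rose and 1 fell, against 2.00% of all genes, and their median log2 fold change was 0.17. Tfe3 was one of the risers. The other was Plekhm1, an adaptor that links autophagosomes and late endosomes to the fusion machinery of the lysosome. Plekhm1 had levels of 1.53, 1.39, 1.48 and 0.35 on colistin arrays 1 to 4, against -3.56, -3.05, -2.67 and -0.86 on saline arrays 1 to 4. The groups did not overlap, and the rise was 3.72 ± 0.61 (adjusted p = 0.0246; 0.0989 with slide as a block). With 1 array left out, Plekhm1 passed only without saline array 4 (0.00758, against 0.0529 to 0.0753 without each other array).

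The gene that fell was Ctss, which encodes cathepsin S, a protease of antigen-presenting cells. Ctss had levels of 0.39, -0.79, -0.0018 and 0.24 on colistin arrays 1 to 4, against 1.89, 2.61, 1.64 and 1.73 on saline arrays 1 to 4. It fell by 2.01 ± 0.38 (adjusted p = 0.0428). That call was lost without any one of the 8 arrays (0.059 to 0.104), with slide as a block (0.096) and with the 75th percentile taken over brighter probes, those above background on all 8 arrays (0.0585). Ctsl and Ctss, both cysteine cathepsins, therefore lay on opposite sides of 0. The macrophage list, like all 10 marker lists, had its lower sums on the colistin arrays, and the part of any cell type in this fall was not tested.

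By list, 0 of the 17 listed subunits of the V-ATPase, the pump that acidifies the lysosome, passed in either direction. Their median was -0.22, with 0 at an unadjusted p under 0.05. A further subunit gene, Atp6v1b1, was held among the distal and collecting duct markers. It gave -3.59 ± 1.24 (limma unadjusted p = 0.0193, adjusted p = 0.159), with every colistin array below every saline array. Among 29 other lysosomal hydrolases 0 rose and 1 fell, and among 17 other membrane and accessory proteins and 13 sorting genes 0 passed. The medians of these lists were 0.059, -0.32 and 0.20. At an unadjusted p under 0.05, which 22.7% of all genes met, the hydrolase list held 4 higher and 1 lower genes, the membrane list 1 and 2, and the sorting list 1 and 2. Of 29 further autophagy genes 1 rose and 0 fell, with a median of 0.35, and 4 were higher and 2 lower at an unadjusted p under 0.05. Among 13 other autophagy receptors 0 passed (1 higher and 1 lower at an unadjusted p under 0.05). The 25 genes of MiT/TFE and mTORC1 control held 1 rise and 0 falls, with a median of 0.21, and 3 were higher and 3 lower at an unadjusted p under 0.05.

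**Figure D3:**
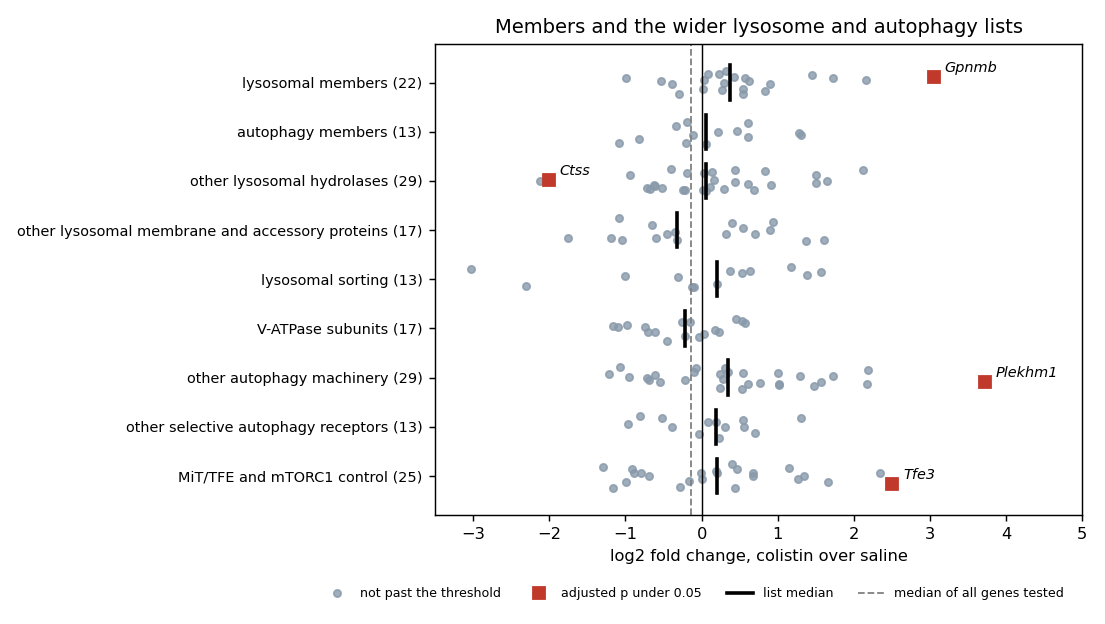
Log2 fold change (colistin over saline, horizontal axis) of every tested gene in the member groups and in 7 wider lists, one point per gene and with the list median as a black bar. Squares mark the 4 genes past the threshold: Gpnmb, Plekhm1 and Tfe3 higher and Ctss lower.

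**Figure D4:**
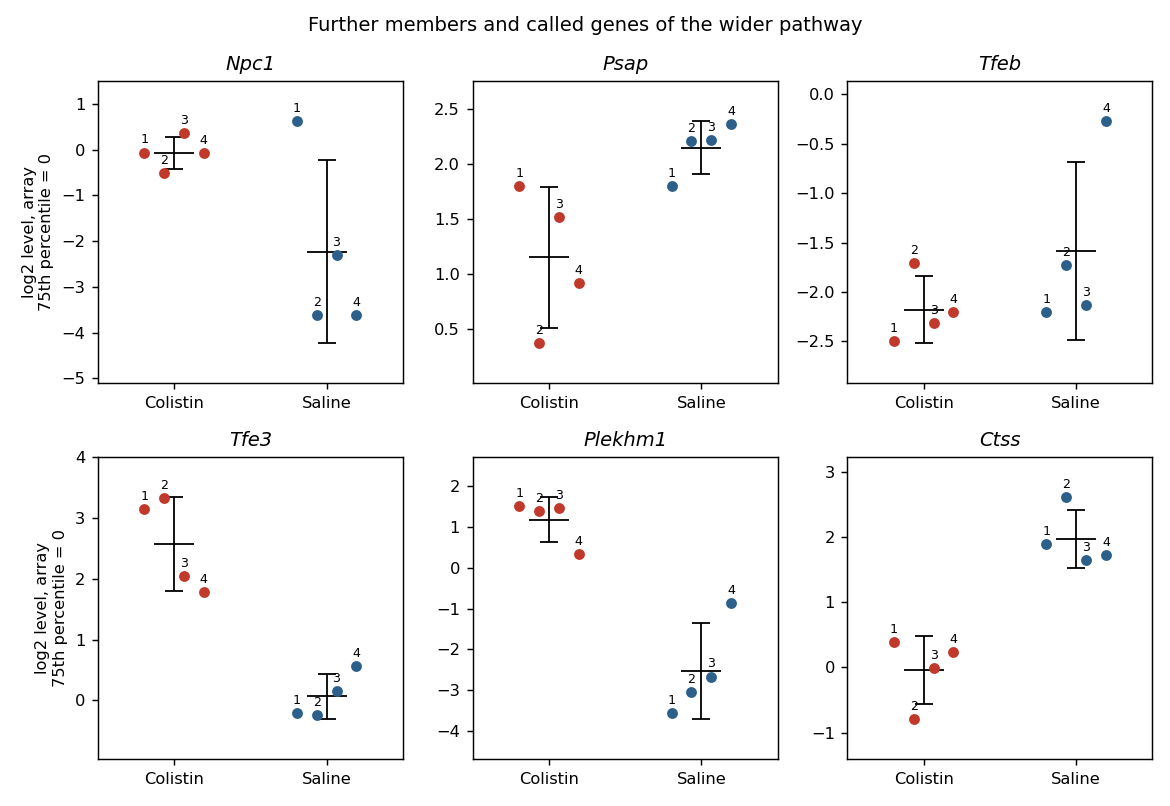
Log2 level (vertical axis, array 75th percentile at 0) of 3 further members (Npc1, Psap, Tfeb) and of the 3 called genes of the wider lists, one point per array numbered by replicate, with mean and SD of 4 arrays as a black bar. Saline array 1 is the single high saline value of Npc1, and Tfe3, Plekhm1 and Ctss show no overlap between groups.

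The Gpnmb call was lost under several settings, as the plot of 4 members under each setting shows. Across 18 alternatives Gpnmb passed in 9 of the 17 that kept its probe, Ctsl in 3, and Sqstm1 and Gabarapl2 in 1 each. All 4 kept their sign in every alternative that gave a value.

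**Figure D5:**
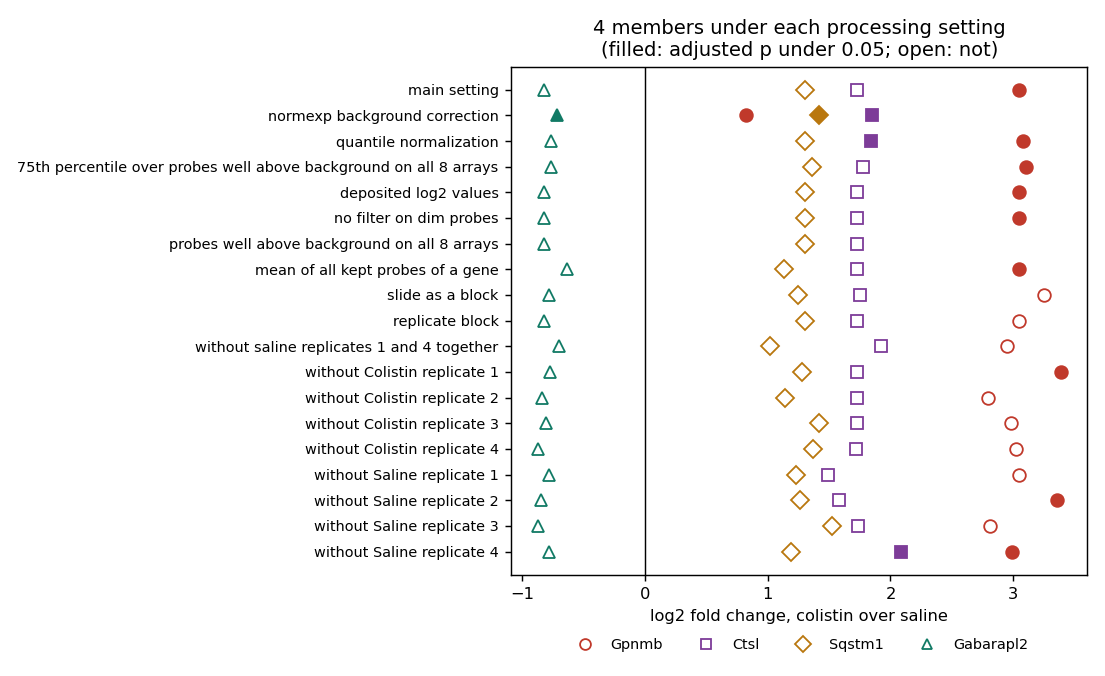
Log2 fold change (colistin over saline, horizontal axis) of Gpnmb, Ctsl, Sqstm1 and Gabarapl2 in the main setting and under 18 alternatives (rows), filled where the adjusted p is under 0.05. Gpnmb stays between 2.79 and 3.39 except with normexp, where it is 0.82, and Ctsl, Sqstm1 and Gabarapl2 hold their side of 0 throughout.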

How the data were processed

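Each sample was hybridised to 1 single-colour Agilent array. The authors deposited spot intensity values, for which the submitters' processing notes name Agilent Feature Extraction 10.5. These intensities were, per the file headers, background-subtracted and detrended within each array. The authors' deposited series table holds log2 values whose scale and centring are not stated. Its column differences followed the scanner values (correlation at least 0.9998), each probe was centred on its median, and column medians were -0.113, -0.229, -0.0885 and -0.0324 for colistin arrays 1 to 4 and 0.232, 0.0227, 0.0862 and 0.195 for saline arrays 1 to 4.

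Control spots and 257 to 461 outlying spots per array were dropped, and spots of a probe were averaged, giving 30367 probes. Levels were log2 intensity minus the array's 75th percentile. A probe was kept if, in either group, 3 or more of the 4 arrays had it well above background (23718 probes). Probes were named by unversioned RefSeq accession (GRCr8 table, names only), which matched 18643 probes, and the brightest kept probe stood for a gene. All 46 member probes were kept. limma 3.58.1 (R 4.3.3; lmFit, eBayes, two-sided) compared colistin with saline, with Benjamini-Hochberg adjustment over 12411 genes and a threshold of 0.05. The fit was tested on simulated data. Slides 1 to 3 held both groups. The normexp alternative used the median spot signal and an offset of 50. The number of arrays limits the precision.

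All members were to be accounted for, with every array's value for those that passed, did not overlap or had probes of opposite sign, and genes of the wider lists were named only where they passed (at most 3 per direction and list). Array values of Psap, Npc1 and Tfeb, single arrays of Gla and Ulk1, and the values of Mitf, Tfec and single cell markers were added after they were seen. An alternative without saline arrays 1 and 4 was also run. The members, lists and alternatives were chosen with earlier results of these data known. Promoters came from RefSeq (GRCr8), matched by symbol for 32 of 37 members.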

Additional observations from a re-analysis of the deposited data

Results flagged for a closer look

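Among the 72 sets of 4 values checked (36 members in each group), 2 held an array far from the other 3, where chance flags about 1 in 20. Ctsd was high on saline array 4, at a level of 4.20 against 3.45 to 3.58 on the other saline arrays. Lamp1 was low on saline array 1, at 3.20 against 4.34 to 4.55 on the other saline arrays. Neither gene passed the comparison of colistin with saline.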

How the results depend on the processing

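The number of genes called moved widely with the setting, and the cause was not tested. In the main setting 248 genes passed (181 higher, 67 lower), with 1 member and 3 wider-list genes (2 higher, 1 lower). With normexp 3385 genes passed (685 higher, 2700 lower; median of all genes -0.34, against -0.14), with 4 members (3 higher, 1 lower) and 17 wider-list genes (8 higher, 9 lower). Quantile normalization called 2 members, both higher. With the 75th percentile over brighter probes, those above background on all 8 arrays, 0 wider-list genes were lower, and with the mean of a gene's probes 2 were lower. Keeping only probes well above background on all 8 arrays called 0 members, since the Gpnmb probe was not kept. Slide as a block left 40 genes (35 higher, 5 lower), 0 members and 0 wider-list genes. The replicate block left 5 genes (5 higher, 0 lower), 0 members and 0 wider-list genes, with Gpnmb at an adjusted p of 0.0959. Same-numbered samples had deviations that correlated at -0.020 to 0.013, so no pairing by number was seen. Samples that shared a slide gave -0.027 to 0.030, so this check could miss a real pairing and cannot exclude one. Without saline arrays 1 and 4 together 143 genes passed (114 higher, 29 lower), with 0 members and 2 wider-list genes (1 higher, 1 lower). Leaving out 1 array at a time gave 78 to 255 genes (59 to 190 higher, 19 to 65 lower), 0 to 2 members, all higher, and 0 to 3 wider-list genes (0 to 2 higher, 0 to 1 lower). The lysosomal median then ran from 0.30 to 0.50 and the autophagy median from -0.17 to 0.22.

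Of the 36 members 20 kept their sign in each of the 18 alternatives that gave a value, and none of the 16 that changed sign passed in any of them. With normexp the values that turned were Gla -0.23, Gusb -0.31, Scarb2 -0.12, Becn1 -0.048, Atg12 -0.32, Gabarap 0.017 and Gabarapl1 0.035. With the mean of a gene's probes they were Glb1 -0.14 and Gabarapl1 0.035, and with slide as a block Gusb -0.11. Without saline arrays 1 and 4 they were Gla -0.68, Gusb -0.031, Lipa 0.30, Atg7 0.40, Atg12 -0.24, Map1lc3a 0.22 and Map1lc3b -0.36. With 1 array left out the ranges that crossed 0 were Gaa -0.18 to 0.31, Lamp2 -0.026 to 0.27, Gusb -0.69 to 0.76, Becn1 -0.47 to 0.58, Atg12 -0.17 to 1.29, Ctsz -1.14 to 0.14, Atg7 -0.69 to 0.26, Map1lc3b -0.032 to 0.53, Map1lc3a -0.46 to 0.13, Ulk1 -0.093 to 1.56 and Gla -0.50 to 1.63. Gpnmb, Scarb2, Gla, Atg12 and Ctsz were not well above background on every array, which limits the precision of their values.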
